A study of Arabidopsis thaliana with 4 samples.

Results

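Cruciferins and vicilin-like proteins are the cupin-fold globulins that fill the protein storage vacuoles of the Arabidopsis embryo and feed the seedling after germination. Their genes are switched on during seed maturation by a network of regulators that includes LEC1, an NF-YB subunit which forms a trimer with NF-YA and NF-YC and acts beside B3 factors such as ABI3, FUS3 and LEC2 and beside bZIP factors. The 8 genes described here, out of 27432 protein-coding genes on the 5 nuclear chromosomes, are the cruciferin genes CRA1 (AT5G44120), CRB (AT1G03880), CRC (AT4G28520) and CRD (AT1G03890), the vicilin-like gene PAP85 (AT3G22640), and 3 further seed cupin genes, AT2G28490, AT2G18540 and AT4G36700. They were chosen by locus identifier, and each was given every ChIP-seq summit that lay inside the gene or up to 1000 bp outside either end. The gene table used carries cruciferin names for CRA1, CRB and CRC and the name PAP85, and only locus identifiers for the other 4 genes.

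The study precipitated chromatin of developing Arabidopsis thaliana seeds with an antibody against FLAG. All plants were lec1-4 mutants that carried LEC1-FLAG under the LEC1 promoter, and they were kept at 22°C in long days, with 16 h light and 8 h dark. The sample labels give a mature seed stage and the series title an embryo expansion stage. There were 2 ChIP libraries, described as biological replicates, each with its own input library from the same genotype. After the filtering of the peak caller, 4454133 and 4493099 tags were left in the ChIP libraries and 7578894 and 9646586 in the inputs. The authors made a separate list of peaks for each pair of ChIP and input. Replicate 1 had 15542 nuclear summits and replicate 2 had 3777. No library from plants without the tag was analysed here, so signal of LEC1-FLAG and background of the antibody cannot be told apart at any of the genes. There was 1 condition, so no test between groups could be made, and the counts below are read beside the share of all genes that met the same rule.

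All 8 storage genes had a summit in replicate 1, where 48.2% of all protein-coding genes had one. In replicate 2 the count was 6 of 8, against 13.5% of all genes, and the same 6 had a summit in both replicates, against 13.3%. They were the 4 cruciferin genes, AT2G28490 and AT4G36700. At each of the 6 the replicates had summits 150 bp or less apart, which held for 12.7% of all genes. PAP85 and AT2G18540 had summits in replicate 1 alone, as did 34.9% of all genes. No storage gene had a summit in replicate 2 alone, against 0.237% of all genes. CRB and CRD are neighbours and shared a summit, which was the only one of CRD, so their counts were not independent.

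**Figure D1:**
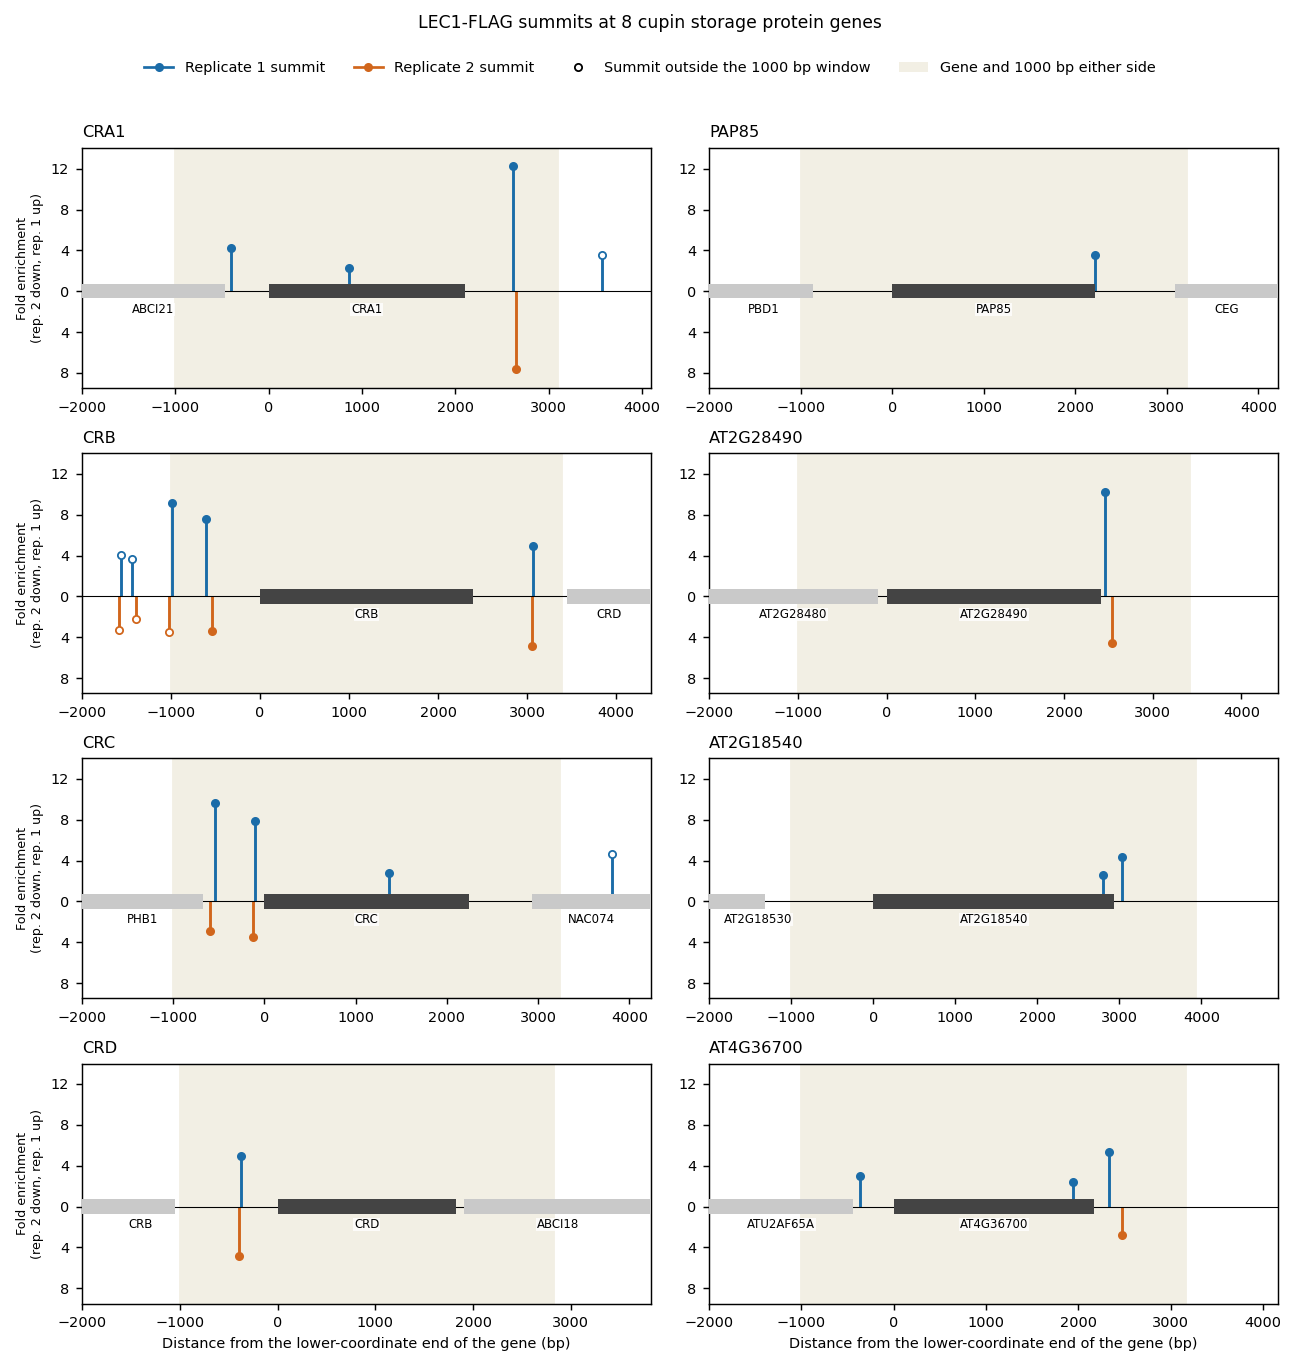
Summits at the 8 storage genes, with distance in bp from the lower-coordinate end of each gene on the x axis and fold enrichment over input on the y axis, replicate 1 upwards and replicate 2 downwards. Dark boxes are the named gene and pale boxes its neighbours, open circles are summits outside the 1000 bp window, and the strongest summits lie outside the dark boxes at every gene except PAP85.

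CRA1, which encodes cruciferin subunit A, had the strongest signal of the 8 in both replicates. Its main site lay beyond the higher-coordinate end of the gene, on chromosome 5 at position 17758856 in replicate 1 and 17758884 in replicate 2 (TAIR10 coordinates, as in the deposited lists), 520 and 548 bp outside the gene. The pileup, the depth of extended ChIP fragments at the summit, was 134 in replicate 1 and 50 in replicate 2. Fold enrichment sets the pileup against the background that the input gives around the summit. It was 12.3 in replicate 1, with an exact 95% Poisson interval from 10.3 to 14.5, and 7.62 in replicate 2, with an interval from 5.70 to 10.002. The summits were 28 bp apart and no neighbouring gene shared them. By its strongest summit CRA1 stood 778th of the 13220 genes with a summit in replicate 1 and 58th of 3716 in replicate 2, ranks that belong to lists of different length. Replicate 1 had a second site in the gap on the other side of the gene, at position 17755835 with 4.22-fold, which lay 403 bp from CRA1 and 67 bp from ABCI21, an ABC transporter family gene, and so counted for both. A weak summit inside CRA1 at 2.26-fold was also found in replicate 1 alone. One more replicate 1 summit, at 3.59-fold, lay 1472 bp outside the gene and was not counted.

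CRB, for cruciferin subunit B, had a cluster of sites along the gap on its lower-coordinate side, which spans 2206 bp up to the fasciclin-like gene FLA9. In replicate 1 this was 1 peak of 1418 bp, on chromosome 1 from 984010 to 985427, with 4 summits. In replicate 2 the same stretch held 4 separate peaks of 176 to 343 bp, and each replicate 2 summit lay within 74 bp of 1 replicate 1 summit. The highest, at position 984760 in replicate 1 and 984733 in replicate 2, had pileups of 83 and 33 and folds of 9.10 (7.27 to 11.3) and 3.45 (2.41 to 4.81). These summits were 991 and 1018 bp from CRB, so the 1000 bp limit kept the replicate 1 summit and left out its replicate 2 partner 27 bp away. The site nearest to the gene, at 985140 and 985214, had 7.53-fold (5.80 to 9.62) and 3.36-fold (2.27 to 4.80). The outer pair of sites, over 1000 bp from CRB and inside the window of FLA9, had 4.08 and 3.64-fold in replicate 1 and 3.27 and 2.18-fold in replicate 2. Only 15 of the 13894 nuclear replicate 1 peaks had 4 or more summits, and the peak beside CRB was the single one of them in which every summit had a replicate 2 summit within 150 bp. It was also long, with 47 peaks (0.338%) of its length or more, against a median of 342 bp. These features were singled out after the values were seen.

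CRB and CRD, which encode cruciferins and lie next to each other with a gap of 1051 bp, shared a summit in that gap. It was at position 988820 in replicate 1, with a pileup of 38, and at 988806 in replicate 2, with a pileup of 33. The folds were 4.90 (3.50 to 6.68) and 4.86 (3.39 to 6.77), so the intervals overlapped almost entirely. The summits lay 674 and 660 bp from CRB and 378 and 392 bp from CRD. This was the only site of CRD in either replicate, and it was the strongest CRB summit in replicate 2. Its ratio of replicate 2 to replicate 1 fold was 0.993, a value reached or passed by 3.26% of the 3189 pairs of summits within 150 bp of each other genome-wide. CRD ends 85 bp from ABCI18, beyond whose far end lay the summit with the highest fold of replicate 1 (30.4, and 8.86 in replicate 2), outside the window of CRD. With each summit given to its nearest gene only, CRB kept a replicate 2 fold of 3.36 from its own gap.

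CRC, for cruciferin subunit C, had a pair of sites in the gap of 673 bp towards PHB1, a prohibitin gene. The outer site, on chromosome 4 at 14087016 in replicate 1 and 14086957 in replicate 2, had pileups of 83 and 21 and folds of 9.66 (7.72 to 11.95) and 2.87 (1.83 to 4.32). The inner site, at 14087453 and 14087426, had pileups of 67 and 25 and folds of 7.92 (6.17 to 10.03) and 3.46 (2.28 to 5.04). The order of the sites thus differed between the replicates, and within each replicate their intervals overlapped. The outer summits lay 540 and 599 bp from CRC and 134 and 75 bp from PHB1, and the inner ones 103 and 130 bp from CRC and 571 and 544 bp from PHB1, so all 4 counted for both genes. Replicate 1 joined them in 1 peak of 1278 bp, while replicate 2 had a peak for each. A weak summit inside CRC, at 2.75-fold, was found in replicate 1 alone. A further replicate 1 summit, at 4.68-fold, lay 1574 bp outside CRC and inside NAC074. It was not counted for CRC and had no replicate 2 summit within 150 bp.

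Of the vicilin-like and other cupin genes, AT2G28490 had the highest fold. Its single site lay just beyond the higher-coordinate end of the gene, on chromosome 2 at 12181064 in replicate 1 and 12181138 in replicate 2, 52 and 126 bp outside. The pileups were 93 and 30, and the folds were 10.2 (8.24 to 12.5) and 4.59 (3.14 to 6.48). The next gene on that side is 5261 bp away and no other gene shared the site. AT4G36700 was weaker, with its main site beyond the higher-coordinate end on chromosome 4 at 17300528 and 17300677. The pileups were 48 and 18 and the folds 5.31 (3.94 to 7.01) and 2.80 (1.72 to 4.35). These summits lay 149 bp apart, close to the 150 bp limit for a pair. AT4G36700 had 2 more summits in replicate 1, at 3.00-fold in the gap it shares with the splicing factor gene ATU2AF65A and at 2.41-fold inside the gene.

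PAP85 and AT2G18540 carried the lowest values of the 8 in replicate 1. PAP85 had 1 summit, on chromosome 3 at 8013937, with a pileup of 36 and 3.56-fold (2.52 to 4.89). It lay 4 bp inside the end of PAP85 and 872 bp from the F-box gene CEG, and the nearest replicate 2 summit was 54276 bp away. AT2G18540 had a summit of 4.40-fold (3.08 to 6.09) on chromosome 2 at 8045123, 90 bp outside the gene, with a pileup of 34, and a weaker one of 2.55-fold inside. Its nearest replicate 2 summit was 8285 bp away. The replicate 2 list holds called summits only, so it gives no value at these places. Of all replicate 1 summits between 3 and 5-fold, 7.68% had a replicate 2 summit within 150 bp. The share was 33.9% between 5 and 8-fold, 78.2% from 8 to below 12-fold and 97.2% from 12-fold. The storage gene summits followed the same order, with 1 of 4 paired between 3 and 5-fold, 3 of 3 between 5 and 8-fold, 3 of 3 from 8 to below 12-fold and the CRA1 summit above that. The peaks beside CRB and CRC each gave a summit to both groups between 5 and 12-fold. These counts were thus not independent. The weakest were 5 summits under 3-fold, among them the AT4G36700 summit that is given as 3.00-fold after rounding. None of the 5 was paired, while 1.44% of all replicate 1 summits under 3-fold were.

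**Figure D2:**
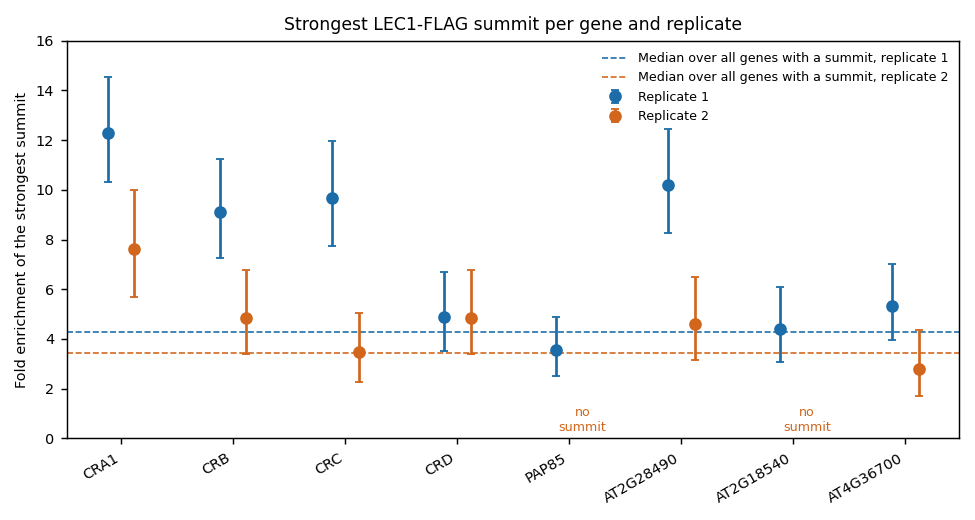
Fold enrichment over input of the strongest summit of each storage gene (y axis, from 0), replicate 1 in blue and replicate 2 in orange, with 95% Poisson intervals of the pileup as bars and dashed lines at the medians over all genes with a summit (4.29 and 3.43). CRA1 is highest in both replicates, and PAP85 and AT2G18540 have no replicate 2 value. At CRB and at CRC the strongest summits of the replicates are at different sites. CRB and CRD show the same replicate 2 summit.

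The order of the strongest folds in replicate 1 was CRA1, AT2G28490, CRC, CRB, AT4G36700, CRD, AT2G18540 and PAP85. The intervals of CRA1, AT2G28490, CRC and CRB overlapped, as did those of AT4G36700, CRD, AT2G18540 and PAP85, and the interval of CRA1 lay above those of the latter 4. In replicate 2 the order was CRA1, then CRB and CRD with their shared site, AT2G28490, CRC and AT4G36700, and the interval of CRA1 overlapped all of these except CRC and AT4G36700. The median of the strongest folds was 7.21 over the 8 genes in replicate 1 and 4.73 over the 6 genes in replicate 2, beside 4.29 and 3.43 over all genes with a summit. The shared summit of CRB and CRD entered the replicate 2 median for each of these genes. Local background, with the 1 that the peak caller adds, ran from 7.96 to 11.001 fragments at the storage gene summits of replicate 1 and from 6.69 to 8.63 in replicate 2. The medians over all nuclear summits were 8.92 and 7.52.

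Fold enrichment was lower in replicate 2 at all 10 pairs of summits within 2000 bp of the storage genes, although the CRB and CRD pair differed by little. In 6 of the 10 pairs the intervals did not overlap, namely at CRA1, at the inner 2 of the 4 pairs beside CRB, at both sites of CRC and at AT2G28490. Replicate 2 had the higher fold in 3.17% of all pairs in the genome. Over the 7 pairs with both summits in a window, the ratio of replicate 2 to replicate 1 had a median of 0.450 and ran from 0.297 at the outer CRC site to 0.993, beside a median of 0.420 over all 3189 pairs (middle 50%, 0.331 to 0.552). The CRA1 ratio was 0.621. Paired summits lay 14 to 149 bp apart, with a median of 59 bp against 34 bp over all pairs. The replicates were called with fragment extensions of 187 and 149 bp and with different input depths, and the part of these settings in the difference was not tested.

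**Figure D3:**
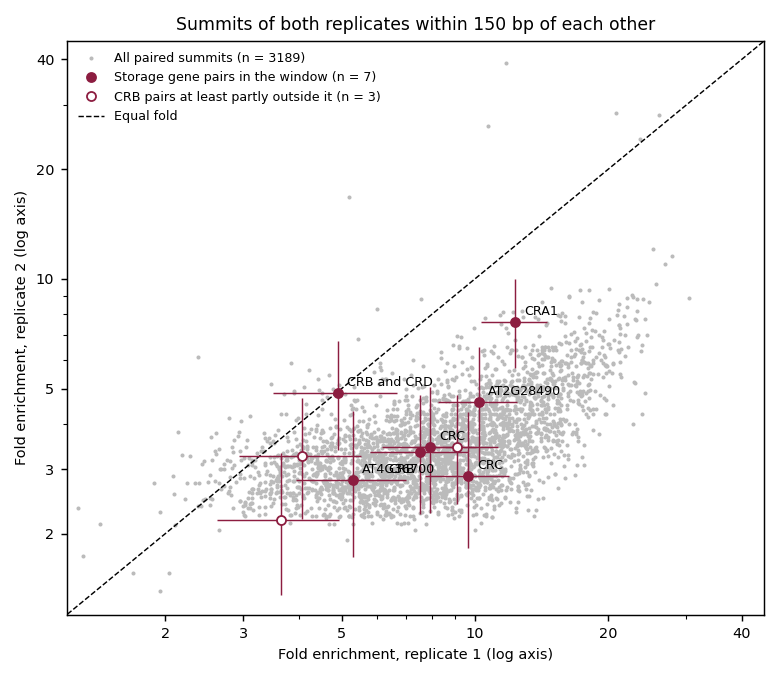
Fold enrichment in replicate 1 (x axis) and replicate 2 (y axis), both on log axes, at summits of both replicates within 150 bp of each other. Grey points are all 3189 pairs, filled red points the 7 storage gene pairs in a window and open red points the 3 CRB pairs at least partly outside it, with 95% Poisson intervals of the pileup. All red points lie on or below the dashed line of equal fold.

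Storage gene sites lay beside the genes more than in them. In replicate 1, 11 of the 16 separate summits were outside the storage genes and 5 inside, and the inside ones ran from 2.26 to 3.56-fold. In replicate 2 all 7 summits were outside. Over all summits in a gene window, 60.2% in replicate 1 and 42.9% in replicate 2 lay inside a protein-coding gene. At least 1 outside summit was present at 7 of 8 genes in replicate 1 and at 6 of 8 in replicate 2, against 34.0% and 9.91% of all genes. An inside summit was present at 5 of 8 genes in replicate 1, against 24.5% of all genes, and at 0 of 8 in replicate 2, against 4.47%. CRA1, CRB, CRC and AT4G36700 each had 3 summits in replicate 1, where 5.37% of all genes had 3 or more, and no storage gene had 3 in replicate 2, where 0.357% did. Of the 16 summits 6 were shared with a neighbouring gene in replicate 1, and 3 of 7 in replicate 2. Genome-wide, 44.4% and 41.3% of summits in a gene window lay in the windows of 2 or more genes. The gene table has no strand, so promoter and downstream sides were not told apart.

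Other genes of the storage protein pathway are given for the setting of these values. Their counts in both replicates stand beside the 13.3% of all protein-coding genes that met the same rule. The seed albumin genes SESA1, SESA2, SESA3 and SESA5 had summits in both replicates, 4 of 5, with folds of 5.10 to 14.6 in replicate 1 and 3.12 to 4.90 in replicate 2. SESA4 had 4.66-fold in replicate 1 alone. Of 11 regulators of storage protein genes, 7 had summits in both replicates. They were LEC1, its relative L1L, the B3 factors ABI3 and FUS3, and the bZIP factors ABI5, bZIP67 and EEL. LEC1 had pileups of 207 and 66 but folds of only 5.15 and 2.33. Its local background thus lay above the medians of 8.92 and 7.52 over all nuclear summits. The tagged transgene also holds LEC1 sequence. Whether reads at LEC1 came from the transgene or from the native gene was not tested, so its count does not show occupancy of the native gene. FUS3 had 11.7 and 39.1-fold, the latter the highest fold of the replicate 2 list. The order of the replicates was thus reversed at FUS3, as in 3.17% of all pairs of summits. Its ratio of replicate 2 to replicate 1 fold, 3.33, was the highest of all 3189 pairs. The reason was not tested. ABI5 had 22.9 and 5.21-fold. LEC2, bZIP25 and bZIP53 had summits in replicate 1 alone and bZIP10 had none. Of 5 genes for processing and sorting of storage proteins, BETA-VPE (7.20 and 4.77-fold) and GAMMA-VPE (16.8 and 4.01-fold), both vacuolar processing enzymes of the class that cleaves seed globulins, had summits in both replicates. ALPHA-VPE had 2.31-fold in replicate 1 alone, and DELTA-VPE and the sorting receptor gene VSR1 had none. Germin-like genes encode cupins that are not storage proteins. Among 10 of them, 4 had a summit in replicate 1, against 48.2% of all genes, and 0 in replicate 2, against 13.5%. The highest of them was GLP5 with 5.81-fold.

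**Figure D4:**
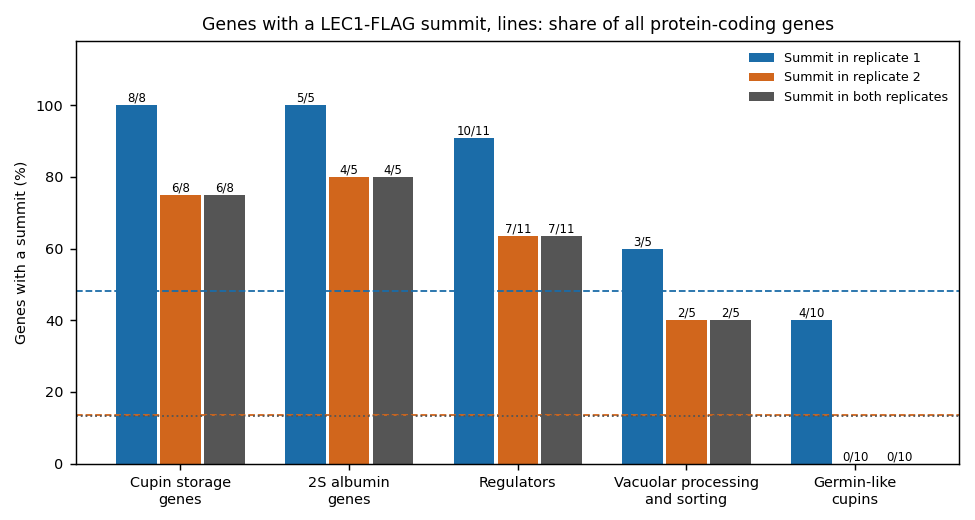
Percent of genes with a summit (y axis, from 0) in replicate 1, replicate 2 and both, for the cupin storage genes and 4 other gene lists, with counts above the bars. Lines give the same shares over all 27432 protein-coding genes (48.2%, 13.5% and 13.3%), and the germin-like cupins have no bar in replicate 2.

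The genes whose strongest folds in the 2 replicates were nearest to those of CRA1, by Euclidean distance of the log2 folds among 3650 other genes with a summit in both, were CYC1BAT (AT5G06150) and ATO (AT5G06160), which share a site with 12.8 and 7.87-fold at a distance of 0.08, and CLC-B (AT3G27170), a chloride channel family gene, with 11.7 and 7.31-fold at 0.09.

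The counts depended on the window and on the peak threshold. With 500 bp in place of 1000 bp, 4 of 8 genes had a summit in both replicates, without CRA1 and CRB, against 10.4% of all genes, and the strongest CRA1 fold of replicate 1 became 4.22. With −log10 q of at least 10 in both lists, CRA1, CRB and CRD remained, 3 of 8 genes at 2 sites, against 2.95% of all genes.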

How the data were processed

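The data were 2 peak lists from ChIP with an antibody against FLAG. Reads were aligned with BWA 0.7.12 to TAIR10, per the submitters' processing notes, and MACS 2.1.0.20150420 called each ChIP library over its own input at a q threshold of 0.05, per the file headers. Among the deposited values, the pileup is a signal (fragment coverage), the fold enrichment is a ratio with 1 added to pileup and background, and the −log10 p and q values state its significance. From these were computed the local background, (pileup + 1) / fold, and exact 95% Poisson intervals of the pileup, which cover counting error of the ChIP only and take the background as exact. Tags without molecular identifiers are not independent molecules.

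Summits were given to every protein-coding gene of a RefSeq table (assembly TAIR10.1, without strand) whose window of 1000 bp held them, in Python 3.11.15 with numpy 2.4.6, pandas 2.3.3 and scipy 1.17.1. On simulated data, 5173 of 5173 summits around 739 isolated genes were assigned as placed. A summit pair lay within 150 bp. The genes and lists were chosen with earlier results of these data known. Named genes were the 8 members, genes sharing their summits, list genes and the 3 genes nearest to CRA1 in fold. CRD's neighbour ABCI18, GLP5, list genes not found in both lists and the genes of the closing section were named after their values were seen. Planned searches for promoter elements and protein identities needed sequences that were not used here. Figures were drawn with matplotlib 3.10.9.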

Additional observations from a re-analysis of the deposited data

How the results depend on the processing

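The number of storage genes with a summit in both replicates was 4 to 6 of 8 with windows of 500 and 2000 bp, with flanks only, with −log10 q of at least 5, with the nearest gene only and with any peak overlap. With the gene body only it was 0 (5 in replicate 1 and 0 in replicate 2), and with −log10 q of at least 10 it was 3 (7 in replicate 1 and 3 in replicate 2), as was the number with a pair within 150 bp. Leaving out 1 replicate gave 6 and 8 genes. The share of all genes was 10.4% with 500 bp, 18.1% with 2000 bp, 4.13% with the gene body, 9.25% with flanks, 7.58% and 2.95% with −log10 q of at least 5 and 10, 9.39% with the nearest gene and 14.05% with peak overlap, and 13.5% to 48.2% with 1 replicate left out. Of the albumin and regulator genes, 11 of which had a summit in both replicates, 5 remained with the gene body only and 6 with −log10 q of at least 10, and leaving out 1 replicate gave 11 to 15. A pair distance of 50 bp left 4 storage genes, without AT2G28490 and AT4G36700. Of 56 repeats of the fold of a single gene, 3 had no summit left (with 500 bp, CRA1 in replicate 2 and CRB in both replicates), 51 stayed inside the interval of the gene and 2 did not. These were CRA1 in replicate 1 with 500 bp (4.22) and CRB in replicate 2 with the nearest gene only (3.36). No paired analysis was possible because ChIP and input enter as 1 peak list per replicate and no result comes from a test. Replicate 2 lists 3777 nuclear summits against 15542, so sites called in replicate 1 alone have no replicate 2 value.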

Other observations

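The loci of CRA1 and CRB had neighbours of the same ABCI, fasciclin-like and prohibitin families, and CRC shared only the prohibitin family with them. This was noticed after the data were seen. In the gene table CRA1 is flanked by ABCI21 on one side and by the fasciclin-like gene FLA13 and the prohibitin gene PHB7 on the other. CRB has FLA9 and then PHB2 on one side and CRD, ABCI18 and ABCI19 on the other. CRC has PHB1 on one side and NAC074, which is of none of these families, on the other. Summits at the neighbours of the same families differed. ABCI18 and ABCI19 shared a site with folds of 30.4 and 8.86 in the replicates, while ABCI21 had 4.22-fold in replicate 1 alone. PHB1 had the sites it shares with CRC, PHB2 had 4.65-fold in replicate 1 alone and PHB7 had no summit in either replicate. FLA9 had 4.08 and 3.27-fold, and FLA13 had no summit in either replicate.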
